A study of Bos taurus with 4 samples.

Results

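The glycolytic enzymes PFKL, GAPDH, PGK1 and PKM were followed in bovine blood neutrophils around calving. They are 4 of the 444 genes that the platform's gene annotation, updated by gene ID, names on this cDNA array, and each is carried by 1 element, a group of 3 consecutive spots, among 1296. The arrays compared RNA of purified neutrophils of parturient cows at day -7, day 0, day 0.25 and day 1, counted from parturition on day 0, and the RNA of 4 cows was pooled at each time. Each of the 4 two-channel arrays held a pair of pools and is named here by the day in channel 1, a slash and the day in channel 2: the arrays are 0.25/-7, 1/0, -7/1 and 0/0.25. Together they form a closed loop in which each pool stands on 2 arrays, once in each channel. There is 1 pool per day, so every error below is that of spots or arrays and not of cows, and no source used here says whether the same cows served each day. In pooled RNA, a change in the number of cells of a type cannot be told apart from a change of RNA per cell.

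Glycolysis splits glucose into pyruvate and yields ATP without oxygen. Neutrophils have few mitochondria and depend on this pathway for the energy of migration, phagocytosis and killing. GAPDH and PGK1 are also widely used as reference genes, whose level is taken as constant when other transcripts are measured against them. That use rests on the level not moving with the condition studied, so the question here was how constant the 4 enzymes were among the pools and within the error of the arrays.

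The values are log2 ratios of channel 1 over channel 2, centred so that the median element of each array is 0. The deposited ratios ran only from 0.574 to 1.53, and no source used here says whether the intensities were transformed before division, so their size is not given as fold changes. The numerator is likewise unstated, and values are called positive or negative and not higher or lower in a pool. The SD over elements was 0.046 for array 0.25/-7, 0.018 for array 1/0, 0.032 for array -7/1 and 0.015 for array 0/0.25. Of 18 marker genes of neutrophils none is named on the array, so the label could not be checked against them. Of the markers of other blood cells and precursors only CD79B and MKI67 are named.

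PFKL is the liver type of phosphofructokinase, which catalyses the committed step of glycolysis by phosphorylating fructose 6-phosphate. On array 0.25/-7 its 3 spots read -0.037, -0.127 and -0.102, a mean of -0.089. On array 0/0.25 they read 0.028, 0.037 and 0.029, a mean of 0.031. The 3 spots lay on one side of 0 on each of the 4 arrays. The share of all elements for which this held was not counted. Arrays 0.25/-7 and 0/0.25 both hold the day 0.25 pool, and PFKL stood there at percentile 3.40 and percentile 97.0 of all elements. On the other arrays PFKL lay within the middle 90% of elements. Its spots read 0.0041, 0.020 and 0.0061 on array 1/0 (mean 0.010) and 0.0066, 0.0014 and 0.0068 on array -7/1 (mean 0.0049).

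GAPDH, which oxidises glyceraldehyde 3-phosphate and produces NADH, departed from 0 on a different array. Its spots on array -7/1 read -0.059, -0.033 and -0.052, with a mean of -0.048 at percentile 3.78 of all elements. On array 0.25/-7 they read -0.031, -0.017 and 0.0033 (mean -0.015), and on array 0/0.25 they read -0.021, -0.0038 and -0.0019 (mean -0.0088). On array 1/0 they straddled 0 at -0.0076, 0.00020 and 0.0098 (mean 0.00080). Thus 1 of its 4 array values lay outside the middle 90% of elements, and the spots on 2 arrays had both signs.

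PGK1, phosphoglycerate kinase, carries out the first step of glycolysis that yields ATP. Its spots on array 0.25/-7 were 0.057, 0.067 and 0.057, with a mean of 0.060 at percentile 95.2 of all elements. The SD between these spots was 0.0055, at percentile 8.05 of the SDs of all elements on that array, where the median element had 0.024. On array -7/1 the spots read 0.017, 0.021 and 0.013 (mean 0.017). The remaining arrays gave 0.0039, 0.0058 and -0.0031 for array 1/0 (mean 0.0022) and 0.00038, 0.00024 and 0.0073 for array 0/0.25 (mean 0.0026), both close to the median element.

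PKM, the pyruvate kinase of muscle and most other tissues, forms pyruvate in the last step. Its 3 spots on array 0.25/-7 disagreed, at 0.011, -0.066 and 0.056, so that the mean of 0.00049 is an average of opposite readings. The SD between them, 0.061, stood at percentile 85.1. On the other arrays the spots were close together, at -0.0028, 0.0045 and 0.0029 for array 1/0 (mean 0.0015), at -0.018, -0.021 and -0.025 for array -7/1 (mean -0.022) and at -0.012, -0.014 and -0.014 for array 0/0.25 (mean -0.013). PKM was therefore negative at every spot of 2 arrays, while its value on array 0.25/-7 was poorly determined.

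**Figure D1:**
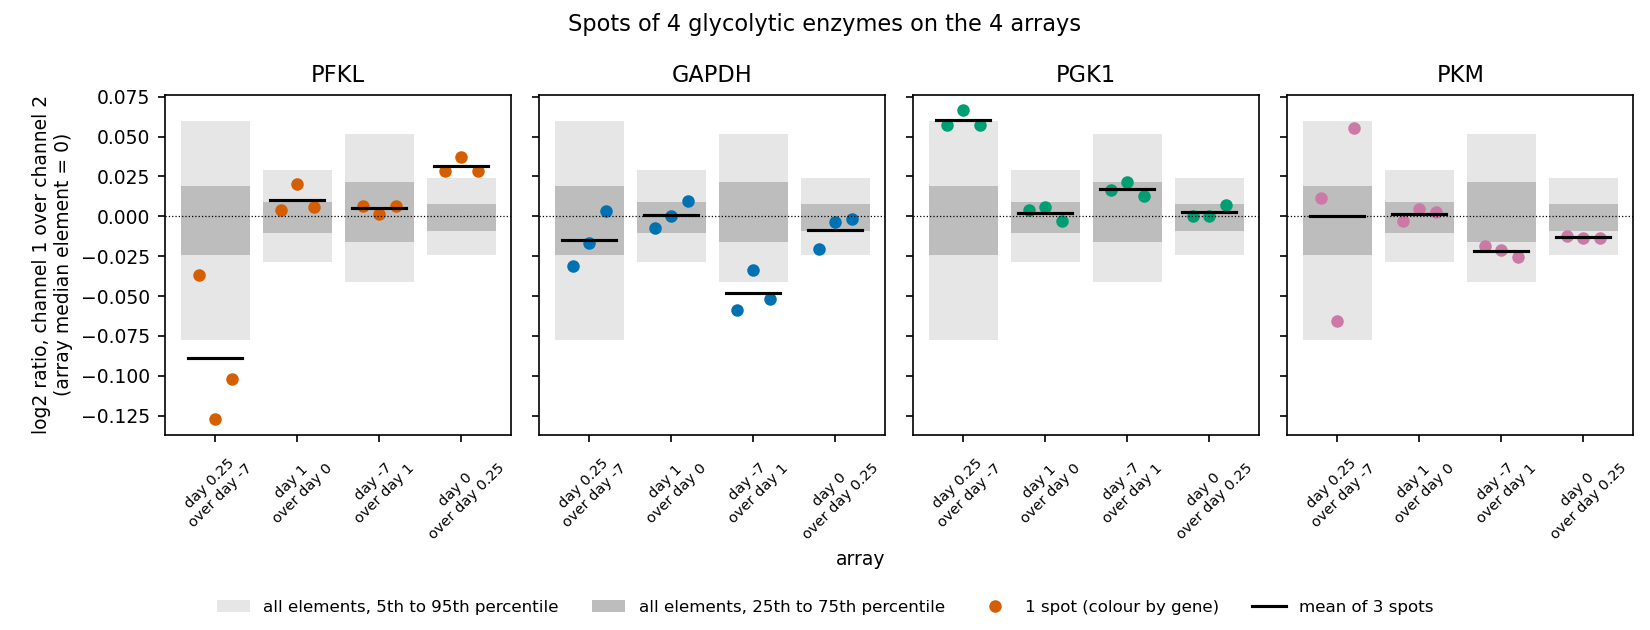
Log2 ratio of channel 1 over channel 2 (vertical axis, median element of the array at 0) of each spot of the 4 enzymes on the 4 arrays (horizontal axis), with the mean of the 3 spots as a black bar and grey boxes for the central 50% and 90% of all elements on that array. PFKL on array 0.25/-7 (-0.089) and on array 0/0.25 (0.031), GAPDH on array -7/1 (-0.048) and PGK1 on array 0.25/-7 (0.060) lie outside the wider box, and the spots of PKM on array 0.25/-7 run from -0.066 to 0.056.

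Each array was first tested on its own, over the 3 spots of each element with limma's moderated test and Benjamini-Hochberg adjustment, so that the error is the spread of those spots alone. GAPDH (-0.048, 95% interval -0.067 to -0.029, adjusted p = 0.0165), PKM (-0.022, -0.032 to -0.011, adjusted p = 0.022) and PGK1 (0.017, 0.0063 to 0.027, adjusted p = 0.0368) passed the threshold of 0.05 on array -7/1. On this array 42.2% of the 1295 elements passed (21.1% positive and 21.2% negative), so the 3 of 4 enzymes stand beside a background that is itself high. PFKL did not pass there (0.0049, adjusted p = 0.311). With any 1 spot position left out, no enzyme passed on array -7/1: the adjusted p ran from 0.0745 to 0.0902 for GAPDH, from 0.0918 to 0.0953 for PKM and from 0.103 to 0.138 for PGK1. The position was left out for every element, which weakens the test for all of them. The share of all elements that still passed was not counted, so this is not a result about the enzymes. With a running median over 27 elements subtracted, GAPDH (-0.042) and PKM (-0.022) kept their side of the threshold, while PGK1 stood at 0, being itself the median of its window.

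On the other 3 arrays no enzyme passed, and neither did almost any element. The share called was 0% on array 0.25/-7, 0% on array 0/0.25 and 0.0772% on array 1/0, and in that order 253, 300 and 253 elements had an unadjusted p below 0.05 in limma. The values of PFKL nonetheless had intervals clear of 0 on array 0.25/-7 (-0.152 to -0.026, unadjusted p = 0.0184, adjusted p = 0.185 in limma) and on array 0/0.25 (0.021 to 0.042, unadjusted p = 0.00159, adjusted p = 0.111 in limma). The same held for PGK1 on array 0.25/-7 (0.036 to 0.085, unadjusted p = 0.00292, adjusted p = 0.171 in limma) and for PKM on array 0/0.25 (-0.022 to -0.0041, unadjusted p = 0.0163, adjusted p = 0.139 in limma).

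The 4 arrays were then fitted together with limma to give the difference of each later pool from day -7. No enzyme passed for any of the 3 differences (0 of 12 values, of which 1 had an unadjusted p below 0.05), and none passed the F test across the pools. The background was low too, with 0.541% of the 1295 elements called by the F test, 0.309% for day 0 minus day -7, 2.01% for day 0.25 minus day -7 and 0.309% for day 1 minus day -7. A missed threshold does not show that an enzyme was constant, and the 95% intervals of the fit, 0.097 to 0.122 wide on the log2 scale, say what the arrays leave possible.

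PFKL had the largest differences of the 4 enzymes for day 0 and day 0.25. It stood at -0.036 ± 0.026 (SE) for day 0 minus day -7, at -0.078 ± 0.023 for day 0.25 minus day -7 and at -0.016 ± 0.023 for day 1 minus day -7. From the most negative fitted value its order was day 0.25, day 0, day 1 and day -7. That order would reverse if all ratios ran the other way. Between neighbours in that order, day 0.25 minus day 0 was -0.042 ± 0.023 (SE) and day 1 minus day 0 was 0.021 ± 0.023. The interval for day 0.25 minus day -7 ran from -0.127 to -0.029 and lay clear of 0 (unadjusted p = 0.00478), but the value did not pass over all elements (adjusted p = 0.103, limma). It passed at the same value when the spots entered the fit separately with their common correlation of 0.331 (adjusted p = 0.0386, limma), and at -0.073 with the sign of array 1/0 turned (adjusted p = 0.0378, limma). With the sign of array 0.25/-7 turned it reversed to 0.055 and did not pass (adjusted p = 0.814, limma), and the day 0 and day 1 values of PFKL were then positive too, at 0.053 and 0.029. Without array 0.25/-7 it stood at -0.046.

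GAPDH stood at 0.012 ± 0.027 (SE) for day 0 minus day -7, at 0.0029 ± 0.024 for day 0.25 minus day -7 and at 0.030 ± 0.024 for day 1 minus day -7. All 3 intervals included 0 and ran from -0.048 to 0.072, from -0.049 to 0.055 and from -0.021 to 0.082. As deposited ratios the interval for day 1 is 0.985 to 1.06. The day 1 value rested on the direct array, array -7/1, and without it GAPDH stood at -0.023. With the sign of that array turned all 3 differences of GAPDH were negative, at -0.036, -0.021 and -0.042.

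PGK1 stood at 0.022 ± 0.028 (SE), 0.040 ± 0.024 and 0.0036 ± 0.024 for day 0, day 0.25 and day 1 minus day -7. From the smallest fitted value its order was day -7, day 1, day 0 and day 0.25. This order too would reverse if all ratios ran the other way. Neighbouring pools did not differ beyond the array error: day 1 minus day 0 was -0.018 ± 0.024 (SE) and day 0.25 minus day 0 was 0.018 ± 0.024. The interval for day 0.25 minus day -7 ran from -0.013 to 0.093 (adjusted p = 0.615, limma). That difference turned negative, at -0.022, without array 0.25/-7.

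PKM had small differences at all 3 times, 0.0037 ± 0.026 (SE) for day 0, 0.0086 ± 0.022 for day 0.25 and 0.013 ± 0.022 for day 1 minus day -7. All 3 were below their standard errors. The intervals were about as wide as for the other enzymes, from -0.053 to 0.060, from -0.040 to 0.057 and from -0.035 to 0.062. With the arrays scaled to the same SD the sign of the day 0 value of PKM (-0.0041) and of the day 1 value of PFKL (0.0021) changed.

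**Figure D2:**
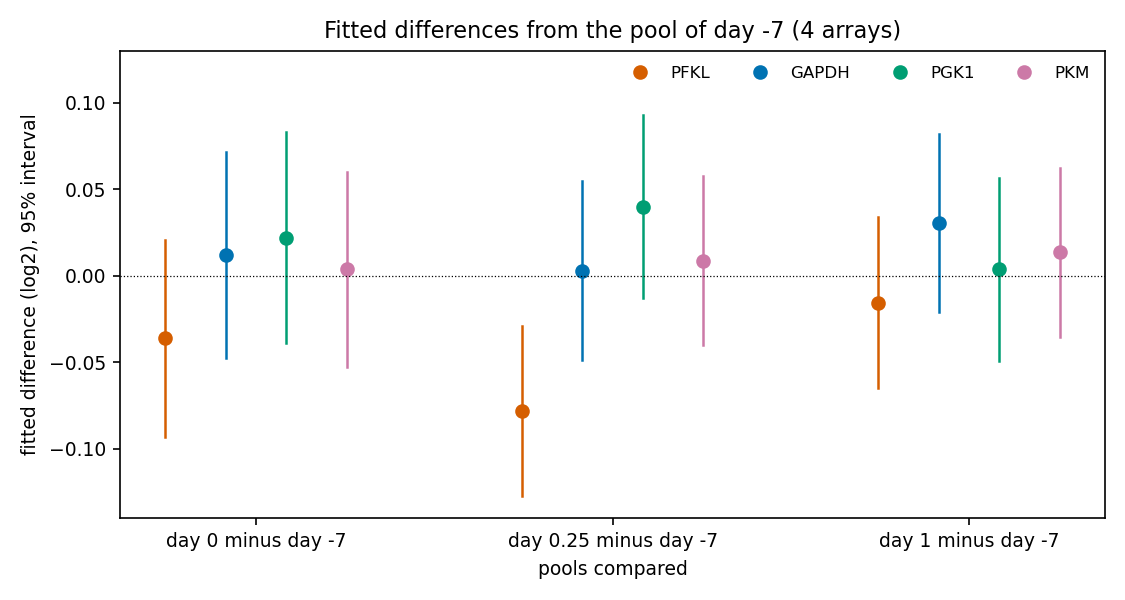
Fitted difference from the pool of day -7 (vertical axis, log2) for day 0, day 0.25 and day 1 (horizontal axis), with points for the fit to 4 arrays and lines for 95% intervals. The interval of PFKL for day 0.25 minus day -7, from -0.127 to -0.029, is the only one of the 12 that does not include 0.

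The span, the highest minus the lowest of the 4 fitted pools, gives 1 measure of constancy per gene. It was 0.013 for PKM, 0.030 for GAPDH, 0.040 for PGK1 and 0.078 for PFKL, against a median of 0.028 over all elements (quartiles 0.018 and 0.042). A smaller span was found for 14.1% of elements in the case of PKM, 56.0% for GAPDH, 73.4% for PGK1 and 93.0% for PFKL. GAPDH and PGK1 thus had a wider span than the median element, PKM one of the narrower and PFKL one of the wider spans. The order depended on array 0.25/-7. Without it the spans were 0.056 for GAPDH, 0.046 for PFKL, 0.033 for PKM and 0.022 for PGK1. In that order, 77.5%, 67.0%, 48.0% and 27.6% of elements then had a smaller span. Under inverse-variance weights for the arrays the span of PGK1 (0.014) was below that of PKM (0.019). With the arrays scaled to the same SD, 44.5% of elements had a smaller span than GAPDH and 33.8% a smaller one than PGK1. The adjusted p of the F test in limma was 0.554 for PFKL (unadjusted p = 0.0308) and 1.00 for the other 3 enzymes.

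The loop gives an internal measure of error for each gene, because its 4 log ratios would add up to 0 without channel bias and noise if all arrays run the same way. This sum is also the only residual of the loop fit, so it is not separate from the errors given above. Channel bias and noise cannot be told apart in it. The sum was -0.071 for GAPDH, 0.082 for PGK1, -0.033 for PKM and -0.042 for PFKL. The size of this closure exceeded the span for GAPDH, PGK1 and PKM, whose spans were 0.429, 0.485 and 0.411 times their closures. PFKL was the 1 enzyme of the 4 with a span above its closure, by a ratio of 1.84. The same was true of 503 of the 1295 elements (38.8%).

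The ratio on each array can also be set beside the ratio that the other 3 arrays predict for it, which is the direct value minus the closure and so restates the sum above array by array. For PFKL they had the same sign on all 4 arrays, -0.089 and -0.046 for array 0.25/-7, 0.010 and 0.052 for array 1/0, 0.0049 and 0.047 for array -7/1, and 0.031 and 0.074 for array 0/0.25. Such agreement on 4 arrays was found for 15.4% of all elements. PGK1 had opposite signs on all 4 arrays, as 18.5% of elements did, with 0.060 on array 0.25/-7 against -0.022 from the other 3. GAPDH had the same sign on 1 array and PKM on 2. For GAPDH the direct value of array -7/1, -0.048, stood against 0.023 from the other 3 arrays.

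**Figure D3:**
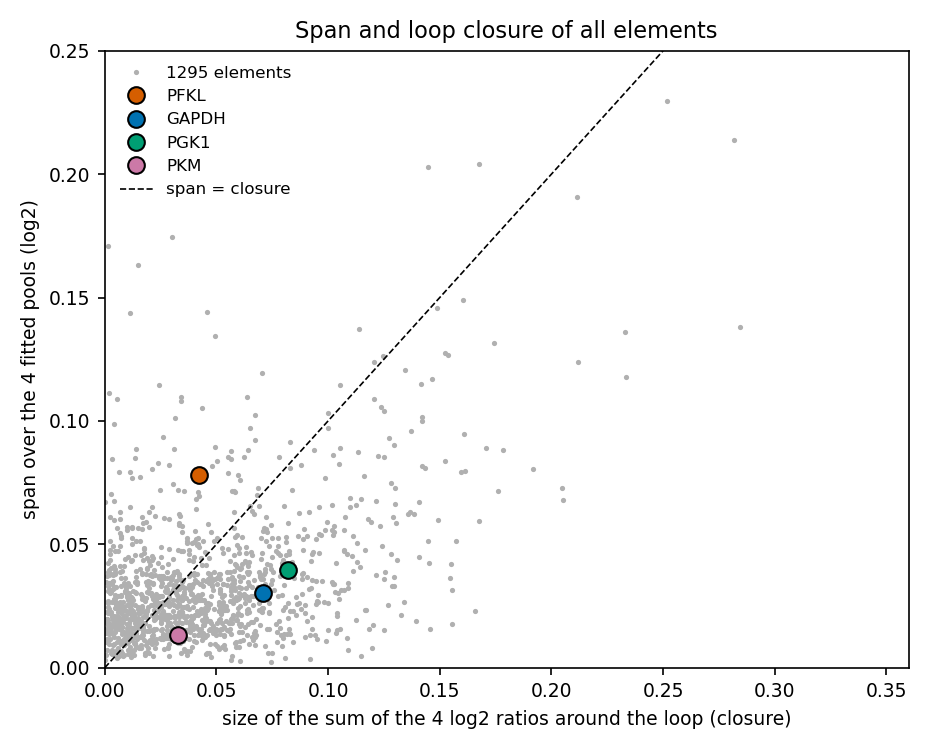
Span over the 4 fitted pools (vertical axis, log2) against the size of the sum of the 4 log2 ratios around the loop (horizontal axis, log2) for 1295 elements in grey and the 4 enzymes in colour; the dashed line marks equal values. PFKL (span 0.078, closure 0.042) lies above the line, while GAPDH (0.030 and 0.071), PGK1 (0.040 and 0.082) and PKM (0.013 and 0.033) lie below it.

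To see what each enzyme would do as a reference, the arrays were centred on its own element in place of the median element. With PFKL as reference, 96.5% of the other elements had a positive difference for day 0.25 minus day -7, against 49.4% with the median element at 0, and 840 of 1294 (64.9%) passed the threshold. With GAPDH 5.72% of elements were positive for day 1 minus day -7, against 47.1%, and 45.7% were positive for day 0.25 minus day -7. With PGK1 6.80% were positive for day 0.25 minus day -7. With PKM the shares positive were 40.0%, 36.1% and 20.9% for day 0, day 0.25 and day 1. The count past the threshold for day 0.25 minus day -7 was 8 with GAPDH (0.618%), 18 with PGK1 (1.39%) and 52 with PKM (4.02%), beside 26 with the median element. All elements then share the error of 1 reference element, which these tests do not take into account. In the fits centred on an enzyme limma's prior degrees of freedom were infinite, so 1 variance common to all elements was used. With the median element at 0 the prior was 10.9, so the counts past the threshold do not rest on the same error. Each choice shifted every element by the reference gene's own difference, so the share of positive values followed from the values given above and from their signs. With the sign of array 0.25/-7 turned, 5.41% of the other elements were positive for day 0.25 minus day -7 with PFKL as reference and 95.6% with PGK1. With the sign of array -7/1 turned, 94.9% were positive for day 1 minus day -7 with GAPDH.

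Measured against PFKL, the other 3 enzymes passed for day 0.25 minus day -7, as did 64.9% of all elements, 836 of those 840 with a positive value. The value was 0.118 for PGK1 (adjusted p = 0.00327, limma), 0.087 for PKM (adjusted p = 0.0183, limma) and 0.081 for GAPDH (adjusted p = 0.0244, limma), the same direction in each. Without array 0.25/-7, and with no test, the values were 0.025 for PGK1, 0.080 for PKM and 0.103 for GAPDH. With the sign of that array turned they were negative, at -0.106 for PGK1, -0.047 for PKM and -0.030 for GAPDH. Measured against GAPDH, neither PGK1 (0.037) nor PKM (0.0057) passed for that day. GAPDH and PKM differed little from each other. The SD of their difference over the 4 pools was 0.0099, against 0.052 for PFKL and PGK1, the widest of the 6 pairs of enzymes.

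**Figure D4:**
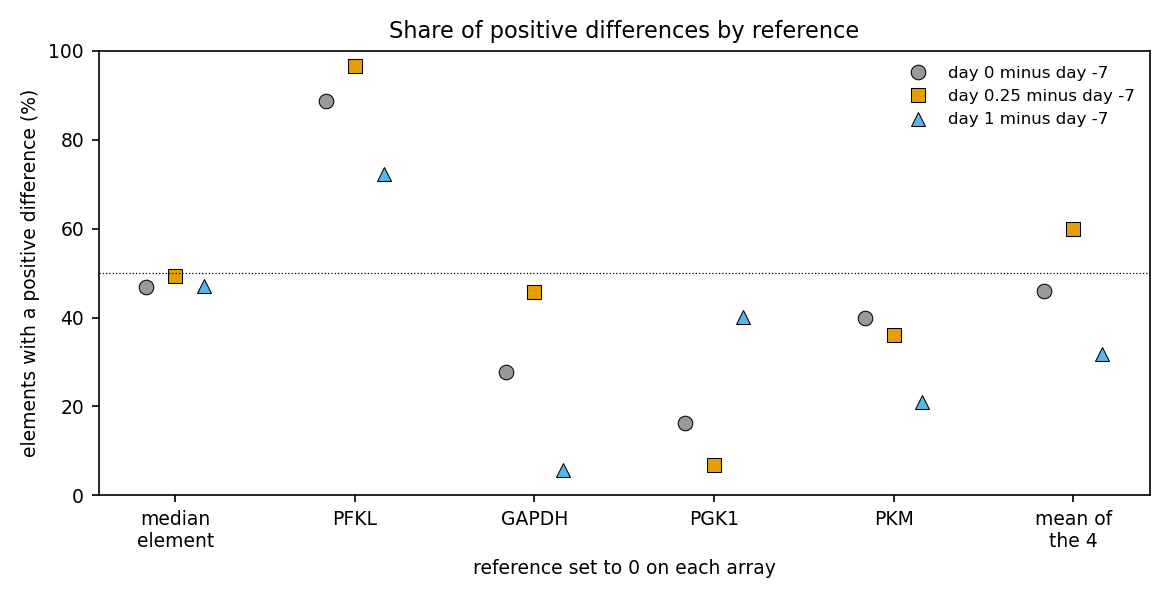
Share of elements with a positive fitted difference from day -7 (vertical axis, percent) for the reference set to 0 on each array (horizontal axis), with 1 symbol for each of day 0, day 0.25 and day 1. With the median element at 0 the shares are 46.8%, 49.4% and 47.1%, while PFKL gives up to 96.5% (day 0.25) and GAPDH as little as 5.72% (day 1).

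Other commonly used reference genes on the array allowed a comparison. Of a list of 41 such genes 6 are named here, GAPDH, PGK1, the ribosomal proteins RPLP1 and RPL13A, the ribosome-associated RACK1 and the histone H3-3A. None of their 7 elements passed for any difference or in the F test. For the 8 genes made up of these 6, PKM and PFKL, the SD over the 4 pools of the difference between a gene and each of the others was averaged over the other 7. It was smallest for RACK1 (0.0178) and PKM (0.0179), followed by RPLP1 (0.0185), H3-3A (0.0200), RPL13A (0.0203) and GAPDH (0.0216), and was largest for PGK1 (0.0291) and PFKL (0.0349). The first 6 of these lie close together, and the order was not tested. Without array 0.25/-7 it changed, with PGK1 first, PFKL in the middle, PKM at rank 7 (0.0293) and GAPDH last. PKM stood at rank 5 without array 1/0 or array 0/0.25 and at rank 4 without array -7/1. RPL13A and RACK1, with an SD of 0.0058 for their difference, formed the pair that differed least. Next came RPLP1 with RPL13A (0.0079) and RPLP1 with RACK1 (0.0085). These ribosomal and ribosome-associated genes count in each other's averages and so lower them. Averages without these pairs were not computed. RPLP1, RPL13A and RACK1 had negative differences from day -7 at each of the 3 times, from -0.033 for RPL13A at day 0 to -0.012 for RACK1 at day 0.25. Those of GAPDH, PGK1 and PKM were all positive, but those of PFKL were negative at all 3 times too. The 3 differences of a gene subtract the same day -7 pool, so a sign that they share is not 3 separate results. The median over all named genes was negative at each time as well (-0.0077, -0.0044 and -0.0048). The share of all elements with the same sign at the 3 times was not counted. H3-3A had both signs, at -0.0097, 0.0057 and 0.022 for day 0, day 0.25 and day 1. With the sign of array -7/1 turned, the day 1 values were 0.021 for RACK1, 0.030 for RPL13A and 0.024 for RPLP1, and those of GAPDH and PKM were negative at all 3 times. RPLP1 (-0.015) and RPL13A (-0.0024) then stayed negative at day 0.25, and PGK1 stayed positive at all 3 times (0.039, 0.048 and 0.029). PGK1 turned negative at all 3 times with the sign of array 0.25/-7 turned, where RPLP1 at day 0.25 stood at 0.0017.

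Of 42 genes of glycolysis and its transporters the array names 5, the 4 enzymes and HK3, the hexokinase of myeloid cells, which traps glucose in the cell as glucose 6-phosphate. HK3 has 2 elements and, as their mean, stood at 0.0034 on array 0.25/-7, 0.00020 on array 1/0, -0.014 on array -7/1 and 0.00034 on array 0/0.25. Its span of 0.011 was below that of PKM, and 9.71% of named genes had a smaller one. None of the 6 elements of these 5 genes passed in either direction for any difference from day -7. The medians of the 5 genes were 0.0087, 0.0059 and 0.011 for day 0, day 0.25 and day 1, at each time the value of HK3 itself. Over all named genes the medians were -0.0077, -0.0044 and -0.0048. The contrast was not tested, and the standard errors of the 4 enzymes, 0.022 to 0.028, were larger than these medians. On array -7/1 alone, 1 element passed positive (PGK1) and 3 negative (GAPDH, PKM and 1 of HK3), beside the 21.1% and 21.2% of all elements.

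The steps that follow pyruvate were thinly covered. Of 36 genes of pyruvate oxidation and the citrate cycle 2 are named, PDK2, a kinase that inhibits pyruvate dehydrogenase, and SUCLG2, a subunit of succinyl-CoA synthetase. PDK2 stood at -0.0040, 0.0050 and -0.010 and SUCLG2 at -0.024, -0.024 and -0.033 for day 0, day 0.25 and day 1 minus day -7, and neither passed for these differences. On array -7/1 alone both passed positive over spots (PDK2 0.022, SUCLG2 0.041). Of 49 genes of the respiratory chain and mitochondrial carriers 4 are named, none past the threshold for any difference from day -7. On array -7/1 alone all 4 passed over spots, NDUFS7 (0.040) and VDAC3 (0.065) positive and NDUFAF3 (-0.061) and UCP2 (-0.035) negative, beside 42.2% of all elements. UCP2, an uncoupling protein of the inner mitochondrial membrane, stood at -0.065, -0.079 and -0.0048, with a span of 0.079 close to that of PFKL. NDUFAF3, an assembly factor of respiratory complex I, stood at -0.0043, -0.018 and 0.036, and the outer membrane channel VDAC3 at -0.014, 0.015 and -0.030. No gene of a list of 17 for the pentose phosphate pathway and glycogen is named.

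The named genes most like each enzyme were taken by the smallest Euclidean distance over the 4 array ratios, among 439 genes. For PFKL these were ARCN1, a coatomer subunit of vesicle transport (distance 0.018), MTARC1, a mitochondrial amidoxime-reducing enzyme (0.024), and TRMT6, a tRNA methyltransferase subunit (0.027), where the median gene stood at 0.098. ARCN1 read -0.075, 0.012, -0.00070 and 0.023 in the order in which the arrays were named. For GAPDH they were PRRC2A (0.014), the surface protein LY6E (0.017) and the cyclophilin PPID (0.022), with a median of 0.074. For PGK1 they were the glycosyltransferase MGAT4B (0.0095), the histone acetyltransferase KAT7 (0.014) and SUPT3H of the SAGA complex (0.015), with a median of 0.069. For PKM they were the small GTPase ARF3 (0.0074), the myosin heavy chain MYH9 (0.010) and the Arf regulator SMAP1 (0.012), with a median of 0.056. With 4 arrays these likenesses are descriptions of the readings alone.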

How the data were processed

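The authors deposited 1 log10 ratio per spot and array, for 3888 spots. Raised to base 10, at least 99.8% of values on each array fell on multiples of 0.0001 (tolerance 2% of the last decimal), against at most 3.99% as powers of 2. Dyes, background correction, normalisation, filters and genome build: not given in the sources used here. No intensities were used, and precision is limited by the number of arrays. After conversion to log2, the 3 spots of an element were averaged, arrays were centred on their median element, and 1295 elements with a value on all arrays were tested (20 spots had none on array 0.25/-7).

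The platform annotation named 486 elements by 1 gene, 9 by several and 801 by none. The bovine gene table of ARS-UCD2.0, used for names, matched 485 of the 486 by gene ID and 1 through a synonym. A gene with several elements is their mean.

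The differences from day -7 were fitted with limma 3.58.1 in R 4.3.3, with Benjamini-Hochberg adjustment over all elements and a threshold of 0.05. This fit had 1 residual degree of freedom and 10.9 prior, while the prior was infinite in fits centred on an enzyme. A channel bias equal on all arrays cancels out of these differences. It stays in the residual of the fit and so enters their standard errors, intervals and p-values. The fits were also run on simulated data. For the loop fit these had no channel bias and the same noise on every array, so the run says nothing about either. The 4 enzymes and all lists were chosen with earlier results of these data known. Named were the 4 enzymes, up to 3 genes per list by size of difference, and the 3 nearest genes of each enzyme. All 6 reference genes, and all genes of the short lists, were named after their values were seen. Alternatives changed the centring, spot averaging, array scale, array weight, position correction, ratio sign and arrays used. Figures were drawn with matplotlib 3.10.9.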

Additional observations from a re-analysis of the deposited data

How the results depend on the processing

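Counts of elements past the threshold depended on the processing, and the cause was not tested. In the order F test, day 0, day 0.25 and day 1 minus day -7 they were 7, 4, 26 and 4 as reported. All 4 were 0 without centring, centred on the median named element, with the running median subtracted, and with the sign turned on array 0.25/-7, on array -7/1 or on array 0/0.25. They were 45, 8, 84 and 31 with the sign turned on array 1/0, and 13, 9, 47 and 14 with spots entered separately. With arrays scaled, day 0.25 gave 5 and day 1 gave 1. With arrays weighted by inverse variance the F test gave 3 and day 0.25 gave 0, and with the median of the 3 spots day 0.25 gave 41. The error differed between these fits too. Limma's prior degrees of freedom were 10.9 as reported and 2.80 to 6.85 in the fits where all 4 counts were 0. The prior was 19.8 with the sign of array 1/0 turned, but 2.54 with spots entered separately and 28.0 with arrays scaled. Centred on GAPDH the 3 days gave 1, 8 and 0, on PGK1 the F test gave 3 and day 0 and day 1 gave 0, on PKM the F test gave 33 and the first 2 days 12 and 52, on PFKL all 4 gave 165, 14, 840 and 8, and on the mean of the 4 enzymes 41, 22, 56 and 10. Centring on PGK1, PKM, PFKL, the 4-enzyme mean or the median named element, centring each spot position, and turning signs with an enzyme as reference were chosen after seeing the data. Centred on the median named element, the enzymes kept their direction and their side of the threshold, with PFKL at day 0.25 at -0.074 (adjusted p = 0.294, limma).

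Differences of the enzymes from day -7 changed sign as follows. With the sign turned on array 0.25/-7, PFKL stood at 0.053, 0.055 and 0.029 and PGK1 at -0.038, -0.051 and -0.027 for day 0, day 0.25 and day 1. With it turned on array -7/1, GAPDH stood at -0.036, -0.021 and -0.042 and PKM at -0.018, -0.0021 and -0.019. With it turned on array 0/0.25, GAPDH at day 0.25 was -0.0014. With arrays scaled, PFKL at day 1 was 0.0021 and PKM at day 0 was -0.0041. Centred on GAPDH, PGK1 at day 1 was -0.027, and PKM was -0.0082 at day 0 and -0.017 at day 1. Centred on PGK1, GAPDH was -0.010 and -0.037 and PKM -0.018 and -0.031 at day 0 and day 0.25. Centred on PKM, GAPDH at day 0.25 was -0.0057 and PGK1 at day 1 was -0.0098. Centred on the mean of the 4, PGK1 at day 1 was -0.0044. PFKL at day 0.25 passed with spots entered separately (-0.078) and with the sign turned on array 1/0 (-0.073). Centred on PFKL, with 1 variance common to all elements, GAPDH (0.081), PGK1 (0.118) and PKM (0.087) passed at day 0.25, and PGK1 passed the F test with a span of 0.118. With the sign turned on arrays 0.25/-7, 1/0, -7/1 and 0/0.25, in that order, the share of other elements positive at day 0.25 was 5.41%, 96.3%, 97.2% and 94.7% with PFKL as reference and 95.6%, 6.03%, 4.79% and 6.49% with PGK1, and at day 1 it was 4.95%, 7.81%, 94.9% and 4.71% with GAPDH.

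Without 1 array at a time, for which no test remains, the differences for day 0, day 0.25 and day 1 ran from -0.057 to -0.015, -0.089 to -0.046 and -0.047 to -0.0049 for PFKL, from -0.024 to 0.047, -0.015 to 0.056 and -0.023 to 0.048 for GAPDH, from -0.019 to 0.063, -0.022 to 0.060 and -0.017 to 0.065 for PGK1, and from -0.013 to 0.020, 0.00049 to 0.033 and -0.011 to 0.022 for PKM. Spans ran from 0.046 to 0.089 for PFKL, 0.024 to 0.072 for GAPDH, 0.022 to 0.080 for PGK1 and 0.013 to 0.034 for PKM. Among the 4 enzymes only PFKL kept its sign for all 3 days with each array left out. Leaving out an array only picks a path around the loop, so this restates the closure and is no separate result. The share of all elements that kept their sign in this way was not counted.

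On single arrays, leaving out 1 spot position gave -0.055 to -0.043 for GAPDH, -0.023 to -0.020 for PKM and 0.015 to 0.019 for PGK1 on array -7/1, none of them past the threshold in a test with fewer spots for every element. It also gave -0.0037 to 0.0050 for GAPDH on array 1/0 and -0.027 to 0.034 for PKM on array 0.25/-7. With the running median subtracted, PFKL on array -7/1 was -0.0070, GAPDH on array 1/0 was -0.0047, and PGK1 was -0.0056 on array 1/0, 0 on array -7/1 and -0.0041 on array 0/0.25. With each spot position centred, PKM on array 0.25/-7 was -0.0010. No paired analysis was possible because each array holds a different pair of pools, with 1 pool per day, and the replicate number, 1 for each array, pairs none of them.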
